A study of Mus musculus with 4 samples.

Results

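The genes described here encode the machinery that licenses, starts and copies DNA replication forks and supplies their nucleotides. The list holds 43 genes chosen by symbol, with earlier results of these data known. All 43 were found among the 53379 Ensembl gene identifiers in the files and had enough reads to be tested. They were sorted into 6 groups by step: origin licensing (11 genes), helicase activation (6), polymerases and primase (8), clamp, clamp loader, single-strand binding and Okazaki fragment maturation (11), nucleotide supply (4), and the replication checkpoint with maintenance methylation (3).

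The libraries were bulk RNA-seq of tumor cells sorted from subcutaneous MC38 tumors, a mouse colon adenocarcinoma line that carried GFP here, grown in C57BL/6 mice from 50000 inoculated cells. Every tumor in both groups was exposed to anti-PD-1 antibody at a sub-optimal dose, 100 µg per injection on days 12, 15, 18 and 22, and no untreated group is analysed here. There were 2 libraries from tumors labelled responder and 2 from tumors labelled non-responder, set against each other to see how cancer cells differ with the outcome of PD-1 blockade. MC38 is 1 cell line, and the labels give neither the age of the mice, nor the day of excision, nor how response was scored. They also do not tie replicates to different animals, so each p-value reflects the spread of the libraries alone, part of which may be technical.

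Before each S phase, the origin recognition complex recruits CDC6 and CDT1, which load the MCM2-7 ring onto DNA as an inactive helicase, and geminin blocks a second loading. CDC45 and the GINS complex then turn the ring into the active helicase, and DNA polymerases alpha, delta and epsilon copy the strands with the help of the PCNA clamp. Many of these genes are transcribed at the G1/S transition under E2F transcription factors, and their RNA is therefore widely used as a readout of proliferating cells in tumors.

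Total counts were 20458601 and 18447041 in the responder libraries and 21754063 and 21670040 in the non-responder libraries, and a member gene had between 242 and 8296 reads in a library. Throughout, values in a pair are replicate 1 and then replicate 2, CPM is the standard depth-scaled count with TMM library sizes, and fold changes are responder over non-responder. Among epithelial markers, Epcam, Krt8, Krt18, Krt19 and Vil1 were at or under 0.65 CPM in every library, Krt20 was at 0 in all of them and Cdh1 reached 2.47 CPM, so the defining epithelial genes of an adenocarcinoma were near 0. The 33 leukocyte markers, of which 25 were tested and all 25 were lower in responders, summed to 19.1 and 135 CPM in responder and 131 and 370 CPM in non-responder libraries. Ptprc, which encodes CD45, had 0.65 and 6.92 CPM against 5.95 and 22.6 CPM, and the T-cell gene Cd3d was at 0 in responder replicate 1 and in non-responder replicate 1. Fibroblast markers, 13 of 16 tested lower in responders, summed to 12815 and 10644 CPM in responder and 14570 and 20006 CPM in non-responder libraries, and endothelial markers to 20.8 and 24.5 against 32.9 and 40.1 CPM. Early genes of tissue dissociation, 15 of 16 higher in responders, summed to 2328 and 4263 against 1911 and 1669 CPM, and mitochondrially encoded genes to 30716 and 38269 against 55440 and 27665 CPM. The part of these differences in the results below was not tested, and in bulk RNA fewer cells of a type and less RNA per cell cannot be told apart.

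Replication genes were higher in the responder libraries at every step, by a modest amount that no single gene carried past the test. Of 43 members, 41 had a positive log2 fold change, against 48.9% of the 13792 tested genes, and the exceptions were Rfc1 and Rpa3. The median log2 fold change was 0.40 (1.32-fold), against -0.01 over all tested genes, and members ran from -0.12 to 0.67. In 38 members both responder libraries lay above both non-responder libraries (the share over all tested genes was 18.8%), and in none did they lie below (17.8%). None of the 43 passed edgeR's quasi-likelihood test with Benjamini-Hochberg adjustment over all tested genes (0% of all genes passed), and the smallest adjusted p among members was 0.631. Unadjusted p-values were under 0.05 in 17 members, all higher in responders. Over all tested genes that share was 6.21%, made of 2.57% higher and 3.63% lower in responders. DESeq2 gave 0 members after adjustment and 13 unadjusted, where 64 and 733 of its 29612 genes were called. With limma-voom these were 0 and 17 members, and 0 and 875 of 13792 genes.

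One library weighs on these sizes. Responder replicate 2 had the highest CPM in 35 of 43 members, responder replicate 1 in 7 and non-responder replicate 1 in 1, while over all tested genes responder replicate 2 was highest in 25.4%. Without responder replicate 2 the member median was 0.29, and without responder replicate 1 it was 0.45. The direction held in these fits for 41 and 42 of 43 members.

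**Figure D1:**
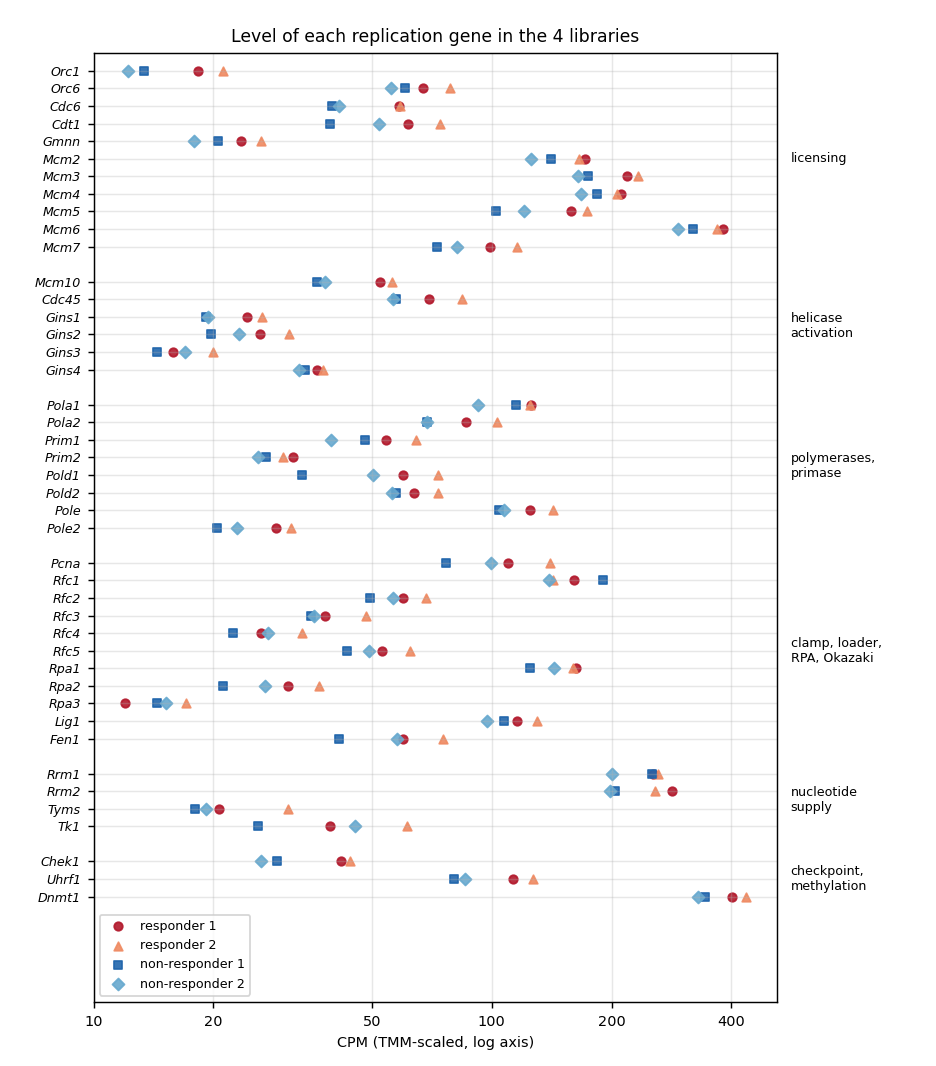
CPM of each of the 43 replication genes (log axis) in responder replicates 1 and 2 and non-responder replicates 1 and 2, grouped by step. In 38 rows both responder points lie to the right of both non-responder points; in Gins3, Rfc1, Rfc4, Rpa3 and Tk1 the groups overlap.

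**Figure D2:**
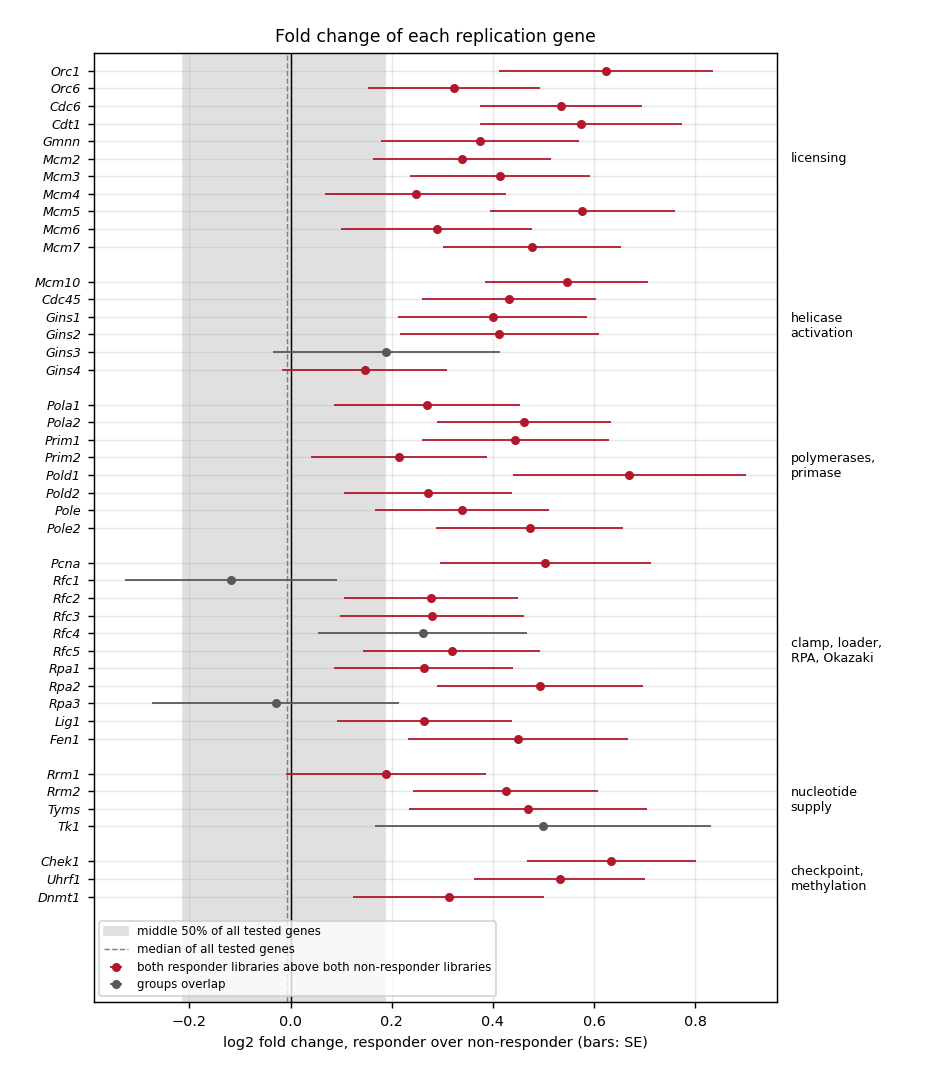
Log2 fold change of each gene, responder over non-responder, with its standard error from edgeR, beside the middle 50% of the 13792 tested genes (-0.21 to 0.19). Pold1 is highest at 0.67, and Rfc1 at -0.12 and Rpa3 at -0.03 are the members below 0.

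The promoters of some members held sequence words that the choice of genes did not use. RefSeq promoter windows on GRCm38.p6, 250 bases before to 50 after each start site, were listed for 35 of the 43 members; those of Gmnn, Mcm4, Gins1, Gins2, Gins4, Prim2, Pole and Rfc2 are not analysed here. The windows were searched on both strands for the E2F words TTTCCCGC, TTTGGCGC, TTTCGCGC and TTTGCCGC. At least 1 word was found in 15 of 35 members (42.9%), against 2.60% of the 27025 genes with a window and 4.84% of tested genes with one. The nearest lists also held it, with 8 of 22 genes of E2F, RB and G1/S control (36.4%) and 11 of 43 other replication factors (25.6%). By step, 7 of 9 licensing genes had a word, 1 of 3 helicase activation genes, 3 of 6 polymerase genes, 2 of 10 clamp and fork genes, 0 of 4 nucleotide genes, and 2 of 3 checkpoint and methylation genes. The member of smallest p in each step is shown first, in the order of the steps, and then the helicase subunits that have 1 listed window and a word in it, a choice made after the matches were seen. Capitals mark E2F words, and all windows read 5′ to 3′ along the gene by its listed strand. The direction was checked in transcripts for all but Mcm5 and Mcm6, whose window ends matched none. Start sites are those of RefSeq and can differ from the counted annotation. The Mcm5 window lies wholly before the counted gene. Those of Cdc6 and Chek1 lie wholly inside the counted genes, so sequence before the counted start was not searched for them.
Cdc6: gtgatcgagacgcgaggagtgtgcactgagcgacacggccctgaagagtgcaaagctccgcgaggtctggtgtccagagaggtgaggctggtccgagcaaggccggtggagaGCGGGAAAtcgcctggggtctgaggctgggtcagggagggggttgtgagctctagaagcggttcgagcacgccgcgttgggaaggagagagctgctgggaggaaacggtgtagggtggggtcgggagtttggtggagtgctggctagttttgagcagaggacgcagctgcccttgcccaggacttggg
Mcm10: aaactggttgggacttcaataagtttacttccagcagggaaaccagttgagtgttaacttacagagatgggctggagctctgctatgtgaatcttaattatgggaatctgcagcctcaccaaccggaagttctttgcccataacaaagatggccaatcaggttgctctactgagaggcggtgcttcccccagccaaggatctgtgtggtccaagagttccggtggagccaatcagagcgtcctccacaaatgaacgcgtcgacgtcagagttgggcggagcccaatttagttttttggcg
Pold1: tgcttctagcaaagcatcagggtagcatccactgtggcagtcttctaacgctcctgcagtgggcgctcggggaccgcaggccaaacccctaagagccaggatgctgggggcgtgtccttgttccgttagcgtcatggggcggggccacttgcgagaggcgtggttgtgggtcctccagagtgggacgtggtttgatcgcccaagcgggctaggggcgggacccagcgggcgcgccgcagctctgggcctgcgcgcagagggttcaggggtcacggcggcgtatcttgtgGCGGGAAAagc
Rpa2: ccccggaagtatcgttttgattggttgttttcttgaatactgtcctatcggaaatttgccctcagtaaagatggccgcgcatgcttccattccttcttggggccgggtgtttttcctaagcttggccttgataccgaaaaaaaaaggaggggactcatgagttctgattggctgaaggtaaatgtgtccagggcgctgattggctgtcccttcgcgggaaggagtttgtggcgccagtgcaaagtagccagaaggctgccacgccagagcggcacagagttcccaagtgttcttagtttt
Rrm2: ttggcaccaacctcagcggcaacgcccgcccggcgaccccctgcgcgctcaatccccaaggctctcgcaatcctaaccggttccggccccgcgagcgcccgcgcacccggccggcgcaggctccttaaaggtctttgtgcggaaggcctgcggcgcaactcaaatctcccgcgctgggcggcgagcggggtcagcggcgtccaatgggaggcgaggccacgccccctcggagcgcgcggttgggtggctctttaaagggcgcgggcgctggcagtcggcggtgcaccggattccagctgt
Chek1: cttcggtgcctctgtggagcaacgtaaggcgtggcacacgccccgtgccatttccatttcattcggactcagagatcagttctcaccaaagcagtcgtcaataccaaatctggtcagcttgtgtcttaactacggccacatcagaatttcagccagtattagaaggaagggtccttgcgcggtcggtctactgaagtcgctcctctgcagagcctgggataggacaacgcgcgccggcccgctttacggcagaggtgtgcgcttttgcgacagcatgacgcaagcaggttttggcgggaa
Mcm3: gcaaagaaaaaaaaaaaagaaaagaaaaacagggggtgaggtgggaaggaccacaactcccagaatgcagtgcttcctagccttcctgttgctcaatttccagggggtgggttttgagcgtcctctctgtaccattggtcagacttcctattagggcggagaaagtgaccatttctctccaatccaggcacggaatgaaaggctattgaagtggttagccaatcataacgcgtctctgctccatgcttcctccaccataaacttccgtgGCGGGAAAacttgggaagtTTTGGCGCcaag
Mcm5: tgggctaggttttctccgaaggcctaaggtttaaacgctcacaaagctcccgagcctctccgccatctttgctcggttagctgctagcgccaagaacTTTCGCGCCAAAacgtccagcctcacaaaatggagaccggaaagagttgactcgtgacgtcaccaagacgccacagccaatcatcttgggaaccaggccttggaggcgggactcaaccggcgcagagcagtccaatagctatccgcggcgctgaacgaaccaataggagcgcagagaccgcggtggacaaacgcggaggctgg
Mcm6: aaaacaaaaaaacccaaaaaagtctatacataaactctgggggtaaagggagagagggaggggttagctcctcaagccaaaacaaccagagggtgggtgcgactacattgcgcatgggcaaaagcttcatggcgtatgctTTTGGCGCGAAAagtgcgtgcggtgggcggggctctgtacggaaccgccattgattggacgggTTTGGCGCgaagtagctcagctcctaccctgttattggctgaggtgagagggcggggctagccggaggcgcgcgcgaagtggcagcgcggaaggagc
These windows lie at chr11:98907901-98908200 on the plus strand for Cdc6, chr2:5012742-5013041 on the minus strand for Mcm10, chr7:44548766-44549065 (minus) for Pold1, chr4:132768110-132768409 (plus) for Rpa2, chr12:24708004-24708303 (plus) for Rrm2, chr9:36726609-36726908 (minus) for Chek1, chr1:20820263-20820562 (minus) for Mcm3, chr8:75109259-75109558 (plus) for Mcm5 and chr1:128359656-128359955 (minus) for Mcm6. In Cdc6 the word begins 138 bases before the RefSeq start site, inside the counted gene. Mcm5 has words beginning 153 and 149 bases before it that overlap each other, one on each strand, and Mcm6 has an overlapping pair beginning 110 and 106 bases before it and another word 47 bases before it. In Pold1 and Mcm3 the words lie after the start site, from base 40 in Pold1 and from bases 20 and 39 in Mcm3. No match in Mcm10, Rpa2, Rrm2 or Chek1 says only that these exact letters are not in the window.

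Fold changes were close in members with and without an E2F word. The median log2 fold change was 0.47 in the 15 members with a word (0.19 to 0.67) and 0.43 in the 20 without (-0.12 to 0.63). The letters CCAAT, the core of the NF-Y box, were in 23 of 35 members (65.7%), 43.7% of tested genes and 41.1% of all genes with a window. The GC box GGGCGG was in 74.3% of members, 68.9% of tested genes and 38.2% of all genes with a window. Mitosis genes had an E2F word in 1 of 34 and the letters TTTGAA, the core of the CHR element of late cell cycle promoters, in 25 of 34 (73.5%). TTTGAA was in 17.1% of members, 14.4% of tested genes and 20.2% of all genes with a window. The shares of mitosis genes with CCAAT (76.5%) and the GC box (79.4%) were near those of the members.

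**Figure D3:**
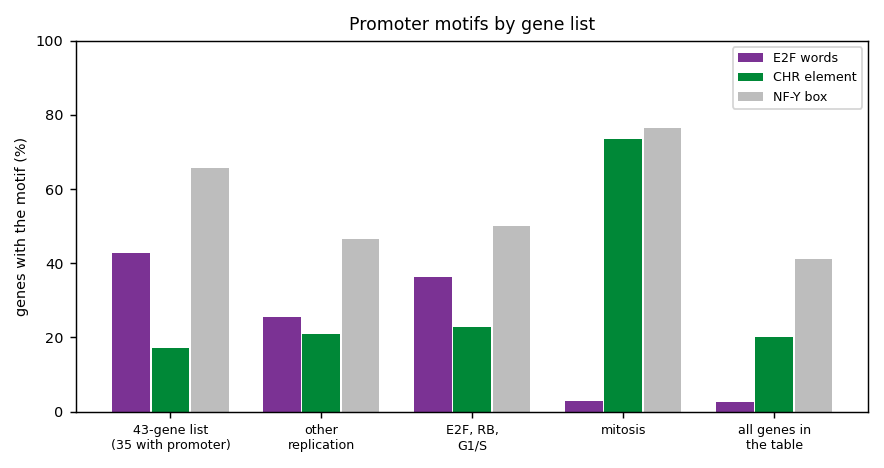
Share of genes (percent, at least 1 match in any listed window) with an E2F word, a CHR element or an NF-Y box, by gene list. E2F words are in 42.9% of replication members and 2.94% of mitosis genes, and CHR elements in 17.1% of replication members and 73.5% of mitosis genes.

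All 11 licensing genes were higher in responders with groups that did not overlap, at a median log2 fold change of 0.41 and a range of 0.25 to 0.62. Of the 6 origin recognition subunits this step holds only Orc1 and Orc6. Over all 6, 4 were higher and 3 did not overlap, at a median of 0.16. Orc1, the ATPase subunit of the origin recognition complex whose level cycles in many cells, had 18.3 and 21.1 CPM in responder libraries, against 13.4 and 12.2 CPM in non-responder libraries (log2 fold change 0.62, SE 0.21). Cdc6, the loader of the helicase, had 58.7 and 58.7 CPM against 39.6 and 41.4 CPM (0.53, SE 0.16). Replicates of Cdc6 lay close together in both groups. Cdt1, its partner in loading, had 61.8 and 74.2 CPM in responder and 39.3 and 52.0 CPM in non-responder libraries (0.57, SE 0.20), with a wider spread in each group. Gmnn, which encodes the CDT1 inhibitor geminin, had 23.5 and 26.3 CPM against 20.6 and 17.9 CPM (0.37, SE 0.20). The ratio of Cdt1 to Gmnn was 2.63 and 2.82 in responder libraries and 1.91 and 2.91 in non-responder libraries, so loader and inhibitor did not separate the groups when set against each other. Orc6, a small origin recognition subunit, had 67.4 and 78.4 CPM against 60.6 and 55.9 CPM.

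The 6 subunits of the MCM2-7 ring were all higher in responders, with summed levels of 1241 and 1262 CPM in responder and 995 and 953 CPM in non-responder libraries. Mcm5 had the largest fold change of the ring, 159 and 174 CPM against 102 and 120 CPM (0.58, SE 0.18). Mcm7 followed with 99.3 and 116 CPM in responder and 72.7 and 81.6 CPM in non-responder libraries (0.48, SE 0.18), and Mcm3 with 219 and 233 against 174 and 165 CPM (0.41, SE 0.18). In all of these the lower responder library was above the higher non-responder library. Mcm2 had 172 and 166 CPM in responder and 141 and 125 CPM in non-responder libraries (0.34, SE 0.18). Mcm6, the most abundant, had 381 and 368 against 321 and 293 CPM (0.29, SE 0.19), and Mcm4 had 211 and 206 against 184 and 167 CPM (0.25, SE 0.18). The fold changes of the 6 overlap within their standard errors, and differences between subunits were not tested.

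Scaled by exon length, ring subunits differed more from each other than between groups. In CPM per kb, Mcm6 had 81.7 and 78.9 in responder and 68.8 and 62.8 in non-responder libraries, Mcm3 had 58.2 and 62.1 against 46.4 and 43.9, and Mcm4 had 58.8 and 57.4 against 51.3 and 46.6. Mcm5 was lower, at 39.7 and 43.5 against 25.6 and 30.2. Mcm2 had 24.7 and 23.8 CPM per kb in responder and 20.3 and 18.0 in non-responder libraries, and Mcm7 22.4 and 26.1 against 16.4 and 18.4. The highest subunit was 3.64 and 3.32 times the lowest in responder libraries and 4.19 and 3.48 times in non-responder libraries, although the ring holds each subunit once. Mcm6 was first and Mcm5 stood between the other high and low subunits in all 4 libraries, while Mcm3 and Mcm4, and Mcm2 and Mcm7, changed places between libraries. The length is that of all annotated exons merged, which lowers this level for genes with long or rarely used exons.

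**Figure D4:**
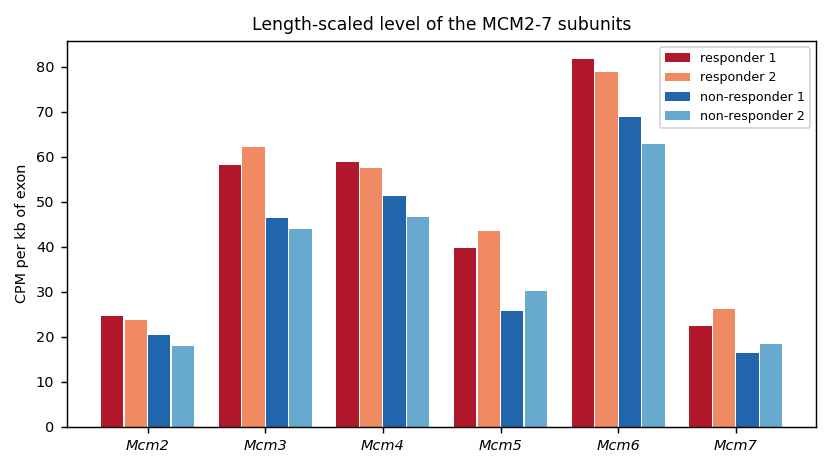
CPM per kb of merged exon for the 6 ring subunits, 1 bar per library, with responder bars left of non-responder bars and the axis from 0. In every subunit both responder bars are above both non-responder bars, and Mcm6 is the highest subunit in each library.

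Helicase activation genes were higher in responders in 6 of 6, at a median of 0.41, and 5 had groups that did not overlap. Mcm10, which helps to fire the assembled helicase, had 52.4 and 56.3 CPM in responder and 36.4 and 38.0 CPM in non-responder libraries (0.55, SE 0.16), the smallest p of the step. Cdc45, which rides on the ring as part of the active helicase, had 69.7 and 84.1 CPM against 57.5 and 56.6 CPM (0.43, SE 0.17). Both genes had non-responder libraries within a few percent of each other. The 4 GINS subunits, which form 1 complex, were uneven. Gins1 and Gins2 had log2 fold changes of 0.40 and 0.41, and Gins4 had 36.4 and 37.6 CPM in responder and 34.0 and 32.9 CPM in non-responder libraries (0.15, SE 0.16). Gins3 had 15.8 and 19.97 CPM against 14.4 and 17.0 CPM (0.19, SE 0.22), and its groups overlapped.

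Polymerase and primase genes were higher in responders in 8 of 8 without overlap between groups, at a median of 0.39. Pold1, the catalytic subunit of DNA polymerase delta, which copies the lagging strand, had 59.8 and 73.3 CPM in responder and 33.4 and 50.3 CPM in non-responder libraries (0.67, SE 0.23). It was the largest fold change of the 43 genes, and non-responder replicate 1 was the low library. Its log2 fold change was 0.99 without non-responder replicate 2, which leaves that low library alone in its group. Without non-responder replicate 1 it was 0.41. Pold2, another delta subunit, had 63.9 and 73.3 against 57.4 and 56.3 CPM (0.27, SE 0.17). Pole, the catalytic subunit of polymerase epsilon on the leading strand, had 125 and 143 CPM in responder and 104 and 107 CPM in non-responder libraries (0.34, SE 0.17), and its partner Pole2 had 28.6 and 31.4 against 20.4 and 22.9 CPM (0.47, SE 0.18). In polymerase alpha-primase, which lays the primers, the accessory subunit gene Pola2 (0.46) and the small primase subunit gene Prim1 (0.44) had larger fold changes than the catalytic subunit gene Pola1 (0.27) and the large primase subunit gene Prim2 (0.21), all with standard errors of 0.17 to 0.18. Prim2 had 31.6 and 29.8 CPM against 27.1 and 25.9 CPM, the smallest difference of the step.

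The clamp and fork genes were the least uniform step, with 9 of 11 higher in responders, 8 without overlap, and a median of 0.28. Pcna, the sliding clamp, had 110 and 140 CPM in responder and 77.0 and 99.4 CPM in non-responder libraries (0.50, SE 0.21). Within the heterotrimer RPA, which coats single-stranded DNA, Rpa2 had 30.8 and 36.8 against 21.1 and 26.9 CPM (0.49, SE 0.20), Rpa1 had 163 and 160 against 125 and 144 CPM (0.26, SE 0.18), and Rpa3 had 12.0 and 17.0 against 14.5 and 15.2 CPM (-0.03, SE 0.24). In Rpa3 responder replicate 1 was the lowest and responder replicate 2 the highest library, and the sign of its fold change was not stable. The clamp loader subunits Rfc2, Rfc3, Rfc4 and Rfc5 had log2 fold changes of 0.26 to 0.32, with overlap in Rfc4. The large subunit Rfc1 had 161 and 142 CPM in responder and 190 and 139 CPM in non-responder libraries (-0.12, SE 0.21), and was the member that was highest in non-responder replicate 1. Fen1, the flap nuclease that trims Okazaki fragments, had 59.8 and 75.4 against 41.3 and 57.8 CPM (0.45, SE 0.22), and Lig1, the ligase that seals them, 116 and 130 against 107 and 97.2 CPM (0.26, SE 0.17). Exons of Fen1 overlap an annotated gene on the other strand over 78.8% of their length and those of Gins2 over 67.3%; the counting used strand. Pcna has 2 named pseudogenes and Tyms 1, so their reads are uncertain.

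Nucleotide supply genes were higher in responders in 4 of 4, at a median of 0.45, but their spread between replicates was the widest of the steps (0.15 on the log2 scale, the pooled SD of library medians). Rrm2, the S-phase subunit of ribonucleotide reductase, had 284 and 257 CPM in responder and 204 and 199 CPM in non-responder libraries (0.43, SE 0.18). Its partner Rrm1, the large subunit, had 255 and 261 against 252 and 200 CPM (0.19, SE 0.20). Non-responder replicate 1 thus lay next to the responder libraries for Rrm1 and far below them for Rrm2, and the Rrm2 to Rrm1 ratio was 1.11 and 0.98 in responder and 0.81 and 0.99 in non-responder libraries. Tyms, thymidylate synthase, had 20.7 and 30.7 CPM against 18.0 and 19.1 CPM (0.47, SE 0.23). Tk1, the thymidine kinase of the salvage route, had 39.3 and 61.2 against 25.8 and 45.2 CPM (0.50, SE 0.33), and in both groups replicate 2 was above replicate 1. Each library moved its log2 fold change, which was 0.78 when responder replicate 1 was left out and 0.15 when responder replicate 2 was. Leaving out replicate 1 of the non-responders gave 0.16, and leaving out their replicate 2 gave 0.96. Without responder replicate 2 the median of this step was 0.17.

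Chek1, the kinase that restrains origin firing when forks stall, had the smallest p of the 43 genes. It had 41.9 and 44.0 CPM in responder and 28.9 and 26.4 CPM in non-responder libraries (0.63, SE 0.17; edgeR adjusted p = 0.631). Uhrf1, which reads hemimethylated DNA behind the fork, had 113 and 127 against 80.3 and 85.9 CPM (0.53, SE 0.17). Dnmt1, the maintenance methyltransferase that it recruits, had 402 and 435 against 344 and 330 CPM (0.31, SE 0.19). All of these had both responder libraries above both non-responder libraries.

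Replication factors outside the list also leaned towards higher values in responders. Of 52 other replication factors, 43 had a positive log2 fold change, at a median of 0.22. In 26 of them (50%) responder libraries lay above non-responder libraries, against 18.8% of all tested genes. At an unadjusted p under 0.05 (edgeR) 9 were higher and 0 lower, where 2.57% and 3.63% of all tested genes were. Recql4, a helicase of origin firing, had 18.6 and 23.1 CPM in responder and 9.43 and 13.3 CPM in non-responder libraries (0.87, SE 0.25), and Ssrp1, a subunit of the histone chaperone FACT, had 518 and 512 against 508 and 404 CPM (0.17, SE 0.21). The remaining origin recognition subunits did not reach the log2 fold change of Orc1 (0.62). Orc2 had 0.29, with both responder libraries above both non-responder libraries. Orc3 had -0.21, Orc4 0.04 and Orc5 -0.02, and their groups overlapped. Of 30 other nucleotide synthesis genes, 24 were higher in responders, at a median of 0.28, and 15 (50%) were higher without overlap between groups. Shmt1, the cytosolic serine hydroxymethyltransferase that feeds thymidylate synthesis, had 43.1 and 50.6 against 30.7 and 31.0 CPM (0.60, SE 0.17), and Atic, of purine synthesis, 456 and 415 against 419 and 354 CPM (0.17, SE 0.20).

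Among regulators of the G1/S step, 20 of 29 were higher in responders, at a median of 0.17. In 15 of them (51.7%) both responder libraries lay above both non-responder libraries, against 18.8% of all tested genes. In 3 both lay below, against 17.8%. At an unadjusted p under 0.05 (edgeR) 5 were higher and 1 lower, where 2.57% and 3.63% of all tested genes were. E2f1, which encodes an activating member of the E2F family, had 80.7 and 82.6 CPM in responder and 68.2 and 63.7 CPM in non-responder libraries (0.31, SE 0.16). Cyclin E genes were similar, Ccne1 with 51.2 and 49.9 against 43.9 and 36.4 CPM (0.33, SE 0.17) and Ccne2 with 52.3 and 49.2 against 43.7 and 32.1 CPM (0.42, SE 0.20). Mybl2, which encodes the E2F-regulated factor B-MYB, had the smallest p of that list, with 57.2 and 61.6 CPM in responder and 35.7 and 36.1 CPM in non-responder libraries (0.73, SE 0.16; edgeR adjusted p = 0.455). Ccnd1, cyclin D1, had 790 and 817 against 531 and 539 CPM (0.59, SE 0.20), and Cdkn1a, the p21 inhibitor, 66.2 and 55.2 against 62.1 and 59.8 CPM (-0.01, SE 0.17).

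Mitosis genes, which peak later in the cycle, did not separate the groups in the same way. Of 40, 31 had a positive log2 fold change, at a median of 0.11. In 4 of them (10%) both responder libraries lay above both non-responder libraries, against 18.8% of all tested genes. In edgeR 0 were at an unadjusted p under 0.05, where 6.21% of all tested genes were. DESeq2 and limma-voom also gave 0 in the higher direction, no low-count filter 1, library size alone 2 and the replicate block 3. With library size alone 9 lay above without overlap, where 19.7% of all tested genes did. Top2a, the topoisomerase that untangles sister chromatids, had 1055 and 1373 CPM in responder and 1157 and 1091 CPM in non-responder libraries (0.11, SE 0.23). Cdk1 had 97.4 and 148 against 82.7 and 112 CPM, Ccnb1 16.6 and 28.2 against 22.2 and 22.9 CPM, and Mki67 545 and 596 against 706 and 463 CPM. Responder replicate 2 was highest in 28 of the 40 and non-responder replicate 1 in 10. With each library left out in turn the mitosis median ran from -0.02 (without responder replicate 2) to 0.28 (without responder replicate 1). In these fits, in that order, 5 and 28 of the 40 had the responder side above the non-responder side. For all tested genes the shares were 28.7% and 33.1%. Without non-responder replicate 1 the count was 24 (35.4% of all tested genes), and without their replicate 2 it was 9 (40.6%). Whether replication members differ from mitosis genes was not tested.

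**Figure D5:**
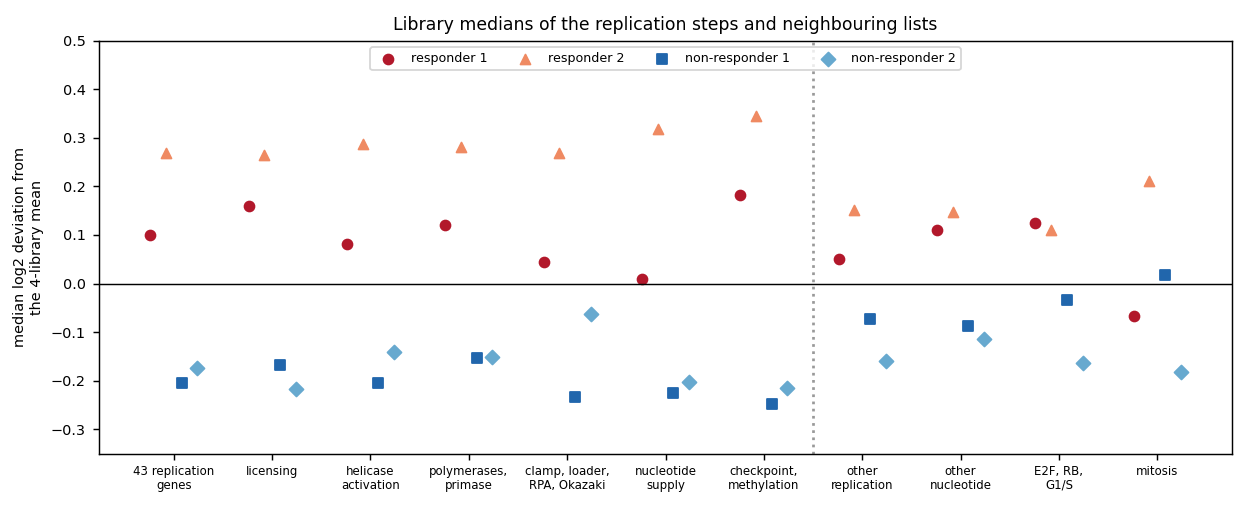
Median log2 deviation of each library from the 4-library mean, over the genes of each list; the steps of replication are left of the dotted line and the neighbouring lists right of it. For the 43 replication genes the medians are 0.10 and 0.27 in responder and -0.20 and -0.17 in non-responder libraries; for mitosis they are -0.07 and 0.21 against 0.02 and -0.18.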

How the data were processed

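Bulk RNA-seq counts of 4 libraries were used, 1 file per library. Per the labels' protocols, polyadenylated RNA was made into stranded libraries. The deposited values are raw counts per gene, made by the authors with featureCounts 1.6.1, reverse-stranded (setting 2), on Ensembl release 91, per the file headers, after alignment with STAR to mm10 (GRCm38), per the submitters' processing notes. The command recorded there has no multi-mapping option, so genes with near-identical copies can be undercounted. Of 53379 identifiers, 53274 matched a symbol; where several had 1 symbol, the one with most reads was taken. Total counts were 18447041 to 21754063.

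Genes were kept by filterByExpr (minimum count 10), which left 13792, scaled by TMM (factors 0.952 to 1.04), and tested on all 4 libraries with edgeR 4.0.16 in R 4.3.3 (robust quasi-likelihood, group as the only term, common biological coefficient of variation 0.216), with p-values adjusted over all tested genes at 0.05. The standard error is the log2 fold change over the square root of F. Library medians are of log2(CPM + 0.5). Alternatives were other scalings (RLE, upper quartile, library size alone), no filter, 5 CPM in 2 libraries, DESeq2 1.42.0, limma-voom (limma 3.58.1), no mitochondrially encoded genes, a replicate block, and each library left out. The code was tested on simulated counts. No libraries were near-identical (chi-square per degree of freedom 22.5 to 66.3). The lowest value was between the responder libraries and the highest between the non-responder libraries. Pairs across groups had 34.5 to 65.5.

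All members are named; values in every library are given for a fixed set of members and for the members of smallest and largest p in each step, and other lists give the gene of smallest p, that of highest level and a few set genes. The members and lists were chosen with earlier results of these data known. Promoter windows come from RefSeq on GRCm38.p6; no protein sequences are used here.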

Additional observations from a re-analysis of the deposited data

How the results depend on the processing

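Under RLE or upper-quartile factors, library size alone, no low-count filter, the 5 CPM filter, DESeq2, limma-voom, no mitochondrially encoded genes and the replicate block, 41 or 42 of the 43 members stayed higher in responders, 37 or 38 were higher without overlap between groups, the member median was 0.38 to 0.43, and 0 members passed after adjustment. Genes passing after adjustment, 0 in edgeR, were 212 with no low-count filter, 64 with DESeq2 and 32 with the replicate block. The replicate numbers are not stated to pair tumors. Deviations of same-numbered libraries had a correlation of 0.386 across genes. Under the block 24 members and 1724 of 13792 tested genes were at an unadjusted p under 0.05 (edgeR). Without it these counts were 17 and 856. With 1 library left out at a time, which leaves a group with 1 library assumed to vary like the other group, 41 to 516 genes and 0 to 2 members passed after adjustment. Those 2 were Pold1 and Cdt1, without non-responder replicate 2 (log2 fold changes 0.99 and 0.79). Members at an unadjusted p under 0.05 were 0 to 18, members higher in responders without overlap 38 to 42 (28.7% to 40.6% of all tested genes), and the median 0.29 to 0.45. Signs turned for Rpa3, to 0.0044 with library size alone and over a range of -0.30 to 0.20 with 1 library left out (above 0 at 0.20 without responder replicate 1 and 0.0036 without non-responder replicate 2). Rfc1 ran from -0.33 to 0.13, above 0 without non-responder replicate 1; the cause was not tested. In the fits with 1 library left out, members at an unadjusted p under 0.05 (edgeR) were fewest without responder replicate 2. They were most numerous without non-responder replicate 2, where the count over all tested genes was also largest. These counts rest on the assumed spread of the group with 1 library, so no conclusion is drawn from them. With 2 libraries a group, an exact permutation test of 1 value cannot go below p = 0.333.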

Other observations

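Each responder library was also set against each non-responder library. Members higher in responder replicate 1 numbered 41 of 43 against non-responder replicate 1 and 39 against non-responder replicate 2, and those higher in responder replicate 2 numbered 42 and 43. Over all tested genes these shares were 49.2% to 51.9%. The median log2 ratio of the members was 0.28 in both contrasts of responder replicate 1, and 0.47 and 0.44 in those of responder replicate 2 against non-responder replicates 1 and 2. For the 40 mitosis genes, the counts higher in responder replicate 1 were 11 and 24 against non-responder replicates 1 and 2, and those higher in responder replicate 2 were 29 and 39.

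Ratios within a library do not depend on how libraries are scaled. The summed CPM of the 43 members over that of the mitosis genes was 0.771 and 0.697 in responder and 0.576 and 0.671 in non-responder libraries, and for the MCM2-7 ring it was 0.225 and 0.193 against 0.164 and 0.186. Chek1 over Mki67 was 0.077 and 0.074 in responder and 0.041 and 0.057 in non-responder libraries. Responder replicate 2 and non-responder replicate 2 lay close together in both summed ratios. These ratios were chosen after the values were seen.

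Among G1/S inhibitors, Cdkn1b, which encodes p27, had 96.3 and 84.9 CPM in responder and 136 and 112 CPM in non-responder libraries (log2 fold change -0.45, SE 0.18), and the RB family genes Rb1 (-0.32, SE 0.16) and Rbl2 (-0.32, SE 0.20) were also lower in responders without passing edgeR's test. Other genes of the fork and its checkpoint with larger fold changes were Dna2 (0.63, SE 0.23), Chtf18 (0.59, SE 0.23), Exo1 (0.54, SE 0.19) and Wee1 (0.48, SE 0.17); Dctpp1, which removes unwanted nucleotides, had 0.66 (SE 0.22). They were named after their values were seen.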
